A study of Rattus norvegicus with 16 samples.

Results

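The axon guidance ligands and receptors form the group of genes described here, in skin of rats whose cutaneous nerves had been cut. Members were chosen by gene symbol alone: semaphorins (Sema3 to Sema6), slits, netrins and ephrins as ligands, and neuropilins, plexins, robos, Dcc, Unc5 genes and Eph genes as receptors. The rule found 58 of 14217 measured genes, with 27 ligands and 29 receptors. The other 2, Unc50 and Unc5cl, match by their symbols and belong to neither class. A further 13 protein-coding genes that fit the rule were not analysed here, among them Efnb2, Ephb2 and Sema7a. Dorsal hairy skin of the T9/10 dermatome came from adult female Sprague-Dawley rats, with 1 Affymetrix rat genome array per sample. The groups were 6 naïve rats without surgery and 5 rats at each of 7 and 14 days. In the denervated rats the left dorsal and lateral cutaneous nerves had been tied and cut at that interval before sampling, which removed sensory and autonomic axons from the skin sampled. No sham-operated group is among the samples analysed here, so surgery and denervation cannot be told apart. Each sample also contained the cutaneous trunci muscle, which inserts on the dermis and kept its own nerve supply, and the neighbouring T11 territory stayed innervated. The paper states that the intact T11 axons sent collateral sprouts into the denervated skin around their territory. It places 7 and 14 days roughly at the initiation and the maintenance of this sprouting. The exact ages of the rats were not given in the sources used here.

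Guidance ligands steer a growing axon tip toward or away from a tissue, and most act outside the nervous system as well, on vessels, immune cells and epithelia. Class 3 semaphorins are secreted, and most bind a neuropilin, which holds the ligand while a plexin carries the signal into the cell. Slits repel axons through robos, netrins attract through Dcc or repel through Unc5 receptors, and ephrins and Eph receptors signal between touching cells, often in both directions. Skin is the target of sensory and sympathetic axons, and these families are known for shaping its innervation and its blood vessels.

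The naïve arrays were not alike, which bears on every comparison with them. On a score of 11 hair follicle genes (each gene's log2 value less its average across the arrays, averaged over the genes), naïve replicates 1 and 2 lay at 1.86 and 2.18, while naïve replicates 3 to 6 were at -4.02 to -3.83. The 7-day arrays ranged from -0.96 to 1.70 and the 14-day arrays from 1.95 to 2.06. Naïve replicates 4 and 5 had the lowest scores for 15 macrophage genes (-1.47 and -1.88) and for 11 fibroblast genes (-1.18 and -1.92). The β-actin control probesets, which compare the 3′ end of the transcript with its middle, differed by 0.96 and 1.20 on the log2 scale on these arrays, by 0.18 to 0.85 on the other naïve arrays and by 0.05 to 0.29 on the denervated arrays. The Gapdh control probesets, which compare the 3′ end with the 5′ end, differed by 0.29 and 0.31 on naïve replicates 4 and 5. The other naïve arrays gave 0.29 to 0.34 for Gapdh, and the denervated arrays 0.23 to 0.42. Defining markers of the tissue were present in naïve skin, with mean log2 values of 13.13 for the keratinocyte gene Krt14 and 13.84 for Acta1 of skeletal muscle. In whole skin, fewer cells of a type and less RNA per cell cannot be told apart. The p-values measure the spread between these samples, and how few arrays there were limits every fold change below.

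Of the 58 guidance genes 22 passed the test in at least 1 of 3 comparisons and 36 in none. At 7 days 6 members were higher than in naïve skin (10.3%, against 7.85% of all genes) and 2 were lower (3.45%, against 2.66%), with limma and an adjusted p under 0.05 (Benjamini-Hochberg, over all genes). At 14 days 4 were higher (6.90%, against 8.95%) and 4 were lower (6.90%, against 14.6%). Between 14 and 7 days 8 were higher at 14 days (13.8%, against 8.86%) and 2 were lower (3.45%, against 10.1%). Ligands and receptors contributed equally at 7 days, with 3 higher and 1 lower in each class. At 14 days 1 ligand and 3 receptors were higher, and 3 ligands and 1 receptor were lower. The median log2 fold change of the ligands was -0.04 at 7 days and 0.04 at 14 days, and that of the receptors -0.06 and 0.14, beside -0.02 and 0.02 for all genes. The median of the ligands at 14 days was -0.01 when the arrays were quantile normalized again. Both comparisons share the naïve arrays.

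**Figure D1:**
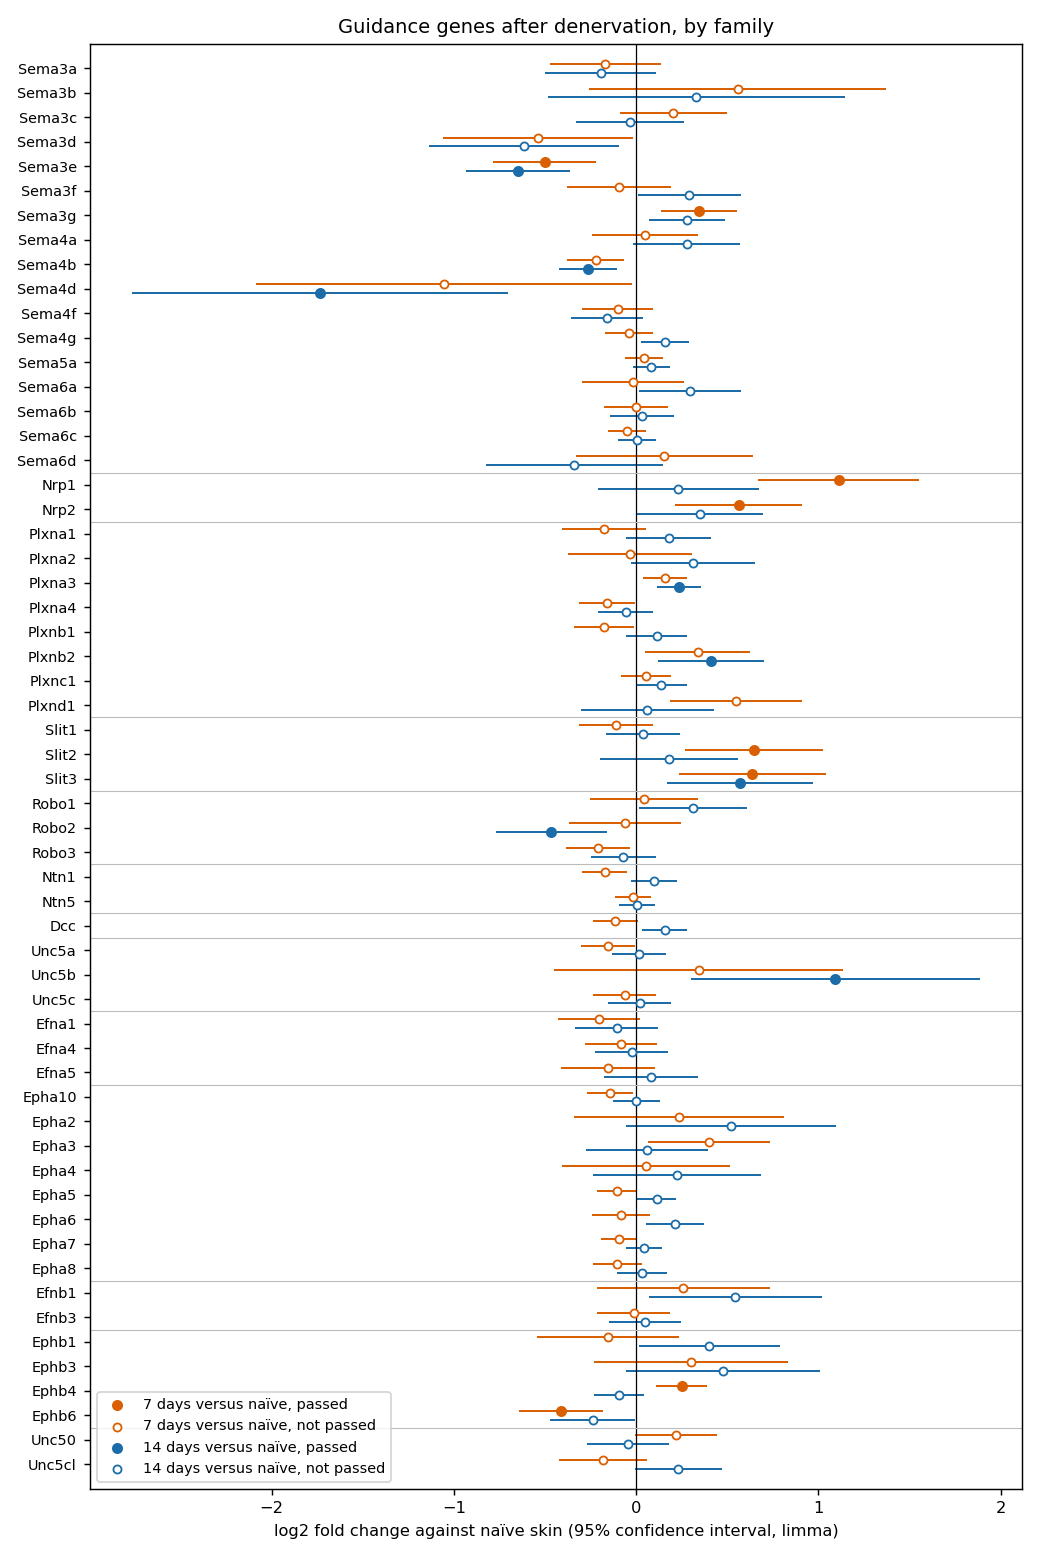
Log2 fold change of each of the 58 guidance genes against naïve skin (horizontal axis), by family, with the 95% confidence interval of limma. Orange points are 7 days and blue points 14 days, filled where the gene passed the adjusted p threshold, and Nrp1 at 7 days stands farthest to the right among filled points (1.11) while Sema4d at 14 days stands farthest to the left (-1.73).

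The neuropilins, the ligand-binding receptors of class 3 semaphorins and co-receptors of vascular endothelial growth factor, were the only family with every member higher at 7 days. Nrp1 lies on chromosome 19 of the GRCr8 assembly, from 73256557 to 73411705. The 250 bases directly before its annotated start (chr19:73256307-73256556, plus strand, RefSeq, GRCr8) are shown because Nrp1 had the largest increase of any member, and they hold 66.4% G and C, against a median of 51.2% over all promoter windows.
Nrp1: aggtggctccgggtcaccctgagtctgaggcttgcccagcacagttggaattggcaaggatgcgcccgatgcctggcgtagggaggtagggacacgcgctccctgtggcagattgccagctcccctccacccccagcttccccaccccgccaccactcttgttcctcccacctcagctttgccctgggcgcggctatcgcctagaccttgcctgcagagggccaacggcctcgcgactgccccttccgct
Nrp1 ranged from 7.43 to 8.79 (median 8.10) on the 6 naïve arrays, on the log2 scale. The 7-day values were 8.73, 9.54, 8.99, 9.64 and 9.12, and the 14-day values were 8.52, 8.14, 8.20, 8.51 and 8.26. At 7 days 4 of the 5 arrays lay above every naïve array, while the fifth lay below naïve replicate 3 and above the others. The 7-day increase was 1.11 on the log2 scale (standard error 0.207, adjusted p = 0.00567), a 2.16-fold increase. Both Nrp1 probesets passed, at 1.02 and 1.20. At 14 days Nrp1 was back within the naïve range, with a log2 fold change of 0.23 (95% confidence interval -0.21 to 0.67). The drop from 7 to 14 days was itself significant, at -0.88 (standard error 0.216, adjusted p = 0.0152), and the 2 sets of values did not overlap.

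Nrp2, the second neuropilin, ranged from 6.61 to 7.63 (median 7.07) in naïve skin. Its 7-day values were 7.93, 7.22, 8.01, 7.75 and 7.56. The 14-day values were 7.48, 7.44, 7.63, 7.46 and 7.40. At 7 days 3 of the 5 arrays exceeded the naïve maximum, and the groups overlapped. The log2 fold change at 7 days was 0.56 (standard error 0.163, adjusted p = 0.04), and at 14 days it was 0.35 and did not pass (adjusted p = 0.124). Of the 2 probesets of Nrp2, 1 passed at 7 days (0.63) and the other did not (0.50). With 1 array left out at a time, Nrp2 passed at 7 days in 4 of 16 fits.

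Among the slits, the secreted ligands of robo receptors, 2 of 3 rose at 7 days. Slit3 lies on chromosome 10 from 20075929 to 20660704. Its upstream window (chr10:20075679-20075928, plus strand, RefSeq, GRCr8) is shown as the one among those printed that contains the Sp1 box letters GGGCGG, in capitals.
Slit3: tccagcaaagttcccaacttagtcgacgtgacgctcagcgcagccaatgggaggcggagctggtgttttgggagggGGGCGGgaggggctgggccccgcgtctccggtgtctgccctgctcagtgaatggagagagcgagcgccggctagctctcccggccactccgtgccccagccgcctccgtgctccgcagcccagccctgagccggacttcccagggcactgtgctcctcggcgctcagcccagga
Slit3 ranged from 7.62 to 8.82 (median 8.18) in naïve skin. Its 7-day values were 8.87, 8.84, 9.15, 8.84 and 8.54, and its 14-day values were 8.90, 8.81, 8.82, 8.70 and 8.66. Naïve replicates 1 and 2, at 8.70 and 8.82, reached the level of the denervated arrays, while the other 4 naïve arrays lay at 8.30 or below. Slit3 rose by 0.64 at 7 days (standard error 0.188, adjusted p = 0.0429) and 0.57 at 14 days (standard error 0.188, adjusted p = 0.0415). With 1 array left out at a time, Slit3 passed in 3 of 16 fits at 7 days and in 7 of 16 at 14 days. Slit2, another repellent of the family, ranged from 4.33 to 5.26 (median 4.71) in naïve skin and read 5.08, 5.56, 5.44, 5.90 and 4.96 at 7 days. Its 14-day values were 4.65, 4.90, 5.13, 5.10 and 4.82. Slit2 rose by 0.65 at 7 days (standard error 0.178, adjusted p = 0.0327), but it lies at the low end of signal (a highest group mean under 5.632, the first quartile over all genes). The gene value is that of 1 of its 3 probesets, and the others gave -0.06 and 0.25 without passing. Slit1 did not pass at either time, and of the robos none passed at 7 days.

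The class 3 semaphorins split at 7 days. Sema3g, which binds neuropilins and is known from vessels, ranged from 5.84 to 6.52 (median 6.22) in naïve skin. At 7 days the values were 6.58, 6.49, 6.60, 6.42 and 6.52, and at 14 days 6.39, 6.60, 6.51, 6.34 and 6.43. The rise at 7 days was 0.34 (standard error 0.0981, adjusted p = 0.0373), with naïve replicate 2 inside the 7-day range. It rested on 1 of 2 probesets, since one gave 0.71 and the other -0.02. Sema3g passed at 7 days in 8 of 16 fits that each left out 1 array.

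Sema3e, which signals through Plxnd1 without needing a neuropilin, fell at both times. It lies on chromosome 4 from 21252686 to 21510449. Naïve values ranged from 8.81 to 9.29 (median 8.93), and the 7-day values were 8.72, 8.36, 8.71, 7.94 and 8.59. The 14-day values were 8.47, 8.34, 8.36, 8.43 and 8.02. Every denervated array lay below every naïve array, at both times. Sema3e changed by -0.50 at 7 days (standard error 0.134, adjusted p = 0.0283) and -0.65 at 14 days (standard error 0.134, adjusted p = 0.00629). Plxnd1, the plexin that binds Sema3e, had values of 8.17, 8.94, 8.45, 9.13 and 8.42 at 7 days against a naïve range of 7.61 to 8.45. Its log2 fold change of 0.55 missed the threshold (adjusted p = 0.0529). Sema3a, the classic repellent of sensory axons and a ligand of Nrp1, did not pass at 7 days (-0.17, 95% confidence interval -0.47 to 0.13). Plxnd1 and Sema3a are named here by choice after their values were seen.

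Of the Eph receptors, Ephb4 rose and Ephb6 fell at 7 days. Ephb4, known as the receptor that marks veins, ranged from 7.81 to 8.11 (median 7.92) in naïve skin, and lies on chromosome 12 from 24963174 to 24988473. Its 7-day values were 8.06, 8.29, 8.12, 8.29 and 8.24, and its 14-day values were 7.86, 7.90, 7.82, 7.96 and 7.75. The 7-day values exceeded the naïve range on 4 of 5 arrays and did not overlap with the 14-day values. The log2 fold change was 0.25 at 7 days (standard error 0.0648, adjusted p = 0.0253) and -0.34 from 7 to 14 days (standard error 0.0676, adjusted p = 0.00588). Against naïve skin Ephb4 did not pass at 14 days. Ephb6, an Eph receptor whose kinase is inactive, lies on chromosome 4 from 71458632 to 71473889. Its upstream window (chr4:71458382-71458631, plus strand, RefSeq, GRCr8) is shown as that of a member that fell, beside those of Nrp1 and Slit3.
Ephb6: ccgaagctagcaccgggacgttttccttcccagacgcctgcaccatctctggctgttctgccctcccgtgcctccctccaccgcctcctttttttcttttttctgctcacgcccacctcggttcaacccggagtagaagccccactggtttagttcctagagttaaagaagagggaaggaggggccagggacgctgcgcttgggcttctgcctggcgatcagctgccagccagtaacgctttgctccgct
Ephb6 stayed within 9.24 to 9.43 (median 9.38) in naïve skin. At 7 days it read 9.15, 9.05, 9.23, 8.54 and 8.71, and at 14 days 9.25, 9.03, 9.24, 9.10 and 8.94. All 7-day values were below the naïve range, by -0.41 on the log2 scale (standard error 0.109, adjusted p = 0.0272). The 14-day values overlapped with naïve skin only at their upper end, and Ephb6 did not pass at that time (-0.24).

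Across the promoter windows (the 250 bases before each start, RefSeq, GRCr8), 7 of the 8 members that passed at 7 days had an entry, Slit2 being the exception. The start is that of the promoter entry, and the windows of Nrp2, Ephb4 and Sema3e lay inside or overlapped the span of the gene. The letters GGGCGG of the Sp1 box, on either strand, were in 4 of these 7 and in 26 of the 44 members with an entry, against 30.5% of 33469 windows. The AP-1 letters TGANTCA were in 0 of the 7 (6.34% of all windows), and TATAAA was in 0 of the 7 (12.9% of all windows). A match describes letters in a window, not a bound site.

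**Figure D2:**
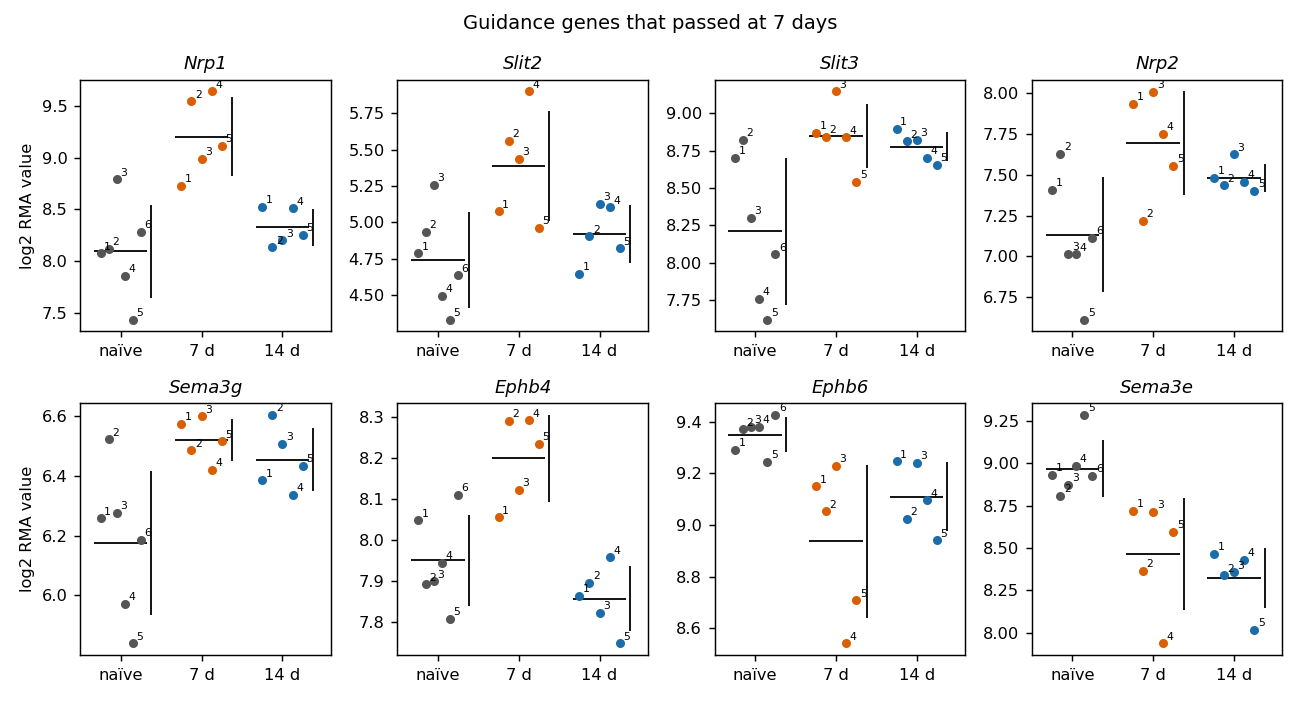
Log2 RMA value of each array (points, numbered by replicate) for the 8 members that passed at 7 days, in naïve, 7-day and 14-day skin, with the group mean (horizontal line) and its SD (vertical line). Nrp1 was high at 7 days and back in the naïve range at 14 days, Ephb4 was high at 7 days with 1 of its 14-day arrays below the naïve range, and Sema3e lay below the naïve arrays at both times.

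Some marker lists of other cells rose at 7 days, and others did not. Of 15 macrophage genes 12 were higher at 7 days, with scores of -1.88 to 0.57 in naïve skin, 0.29 to 1.05 at 7 days and -0.06 to 0.27 at 14 days. Of 12 endothelial genes 7 were higher, with scores of -0.51 to 0.20, -0.06 to 0.59 and -0.18 to -0.08, and the endothelial markers Erg and Sox17 lay at the low end of signal. Of 11 fibroblast genes 6 were higher, with scores of -1.92 to 0.15, 0.21 to 1.08 and 0.00 to 0.31. The part of these cells in the rise of Nrp1, Nrp2, Slit2, Slit3, Sema3g and Ephb4 was not tested. Of 10 Schwann cell genes 0 were higher and 2 lower at 7 days (20%, against 2.66% of all genes), with a median of -0.13. None of 10 epidermal keratinocyte genes (median -0.21) and none of 14 sarcomere genes (median -0.43) passed at 7 days. All 11 hair follicle genes were above naïve skin at 7 days without passing, with a median log2 fold change of 2.05. With their score entered as a covariate Slit3 was at 0.34 (adjusted p = 0.126), Nrp2 at 0.33 (adjusted p = 0.127), Sema3g at 0.21 (adjusted p = 0.119) and Slit2 at 0.64 (adjusted p = 0.0519), so that these 4 no longer passed. Nrp1 (1.17) and Ephb4 (0.26) still passed with it, as did Sema3e (-0.50) and Ephb6 (-0.43). Ephb4 no longer passed with array medians subtracted (0.18, adjusted p = 0.0609) or after a further quantile normalization (0.17, adjusted p = 0.0815). It also missed the threshold with array weights (0.18, adjusted p = 0.0733). Without naïve replicates 4 and 5 Nrp1 alone passed (0.89, adjusted p = 0.0283), and without naïve replicates 1 and 2 the counts rose to 12 higher and 8 lower. Of all 14217 genes 345 were higher and 46 lower in the first of these settings, and 2706 and 2334 in the second. With the array medians subtracted 5 members were higher and 8 lower, and after a further quantile normalization 3 and 3, where the values as deposited gave 6 and 2. Over all genes these scalings gave 951 higher and 1492 lower, and 951 and 729, against 1116 and 378 as deposited. Nrp1 passed under each of the 12 other settings applied to it and with each of the 16 arrays left out (0.89 to 1.25).

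At 14 days the changes with the largest size were a fall of Sema4d and a rise of Unc5b. Sema4d, a membrane-bound semaphorin that acts on Plxnb receptors and on immune cells, lies on chromosome 17 from 13582085 to 13688889. It ranged from 6.31 to 9.43 (median 8.69) in naïve skin. At 7 days the values were 6.34, 8.12, 7.01, 7.37 and 7.31, and at 14 days 5.95, 6.79, 6.57, 6.64 and 6.79. The naïve arrays divided, with replicates 1 and 2 at 7.29 and 6.31 and the other 4 at 8.52 or above, so that naïve replicate 2 lay within the 14-day values. The log2 fold change at 14 days was -1.73 (standard error 0.485, adjusted p = 0.0232), a 3.33-fold decrease.

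Unc5b, a repulsive netrin receptor that is also known from blood vessels, lies on chromosome 20 from 29240639 to 29307270. It ranged from 7.96 to 10.00 (median 8.27) in naïve skin. The 7-day values were 9.74, 8.50, 9.38, 8.47 and 9.29, and the 14-day values were 9.77, 10.00, 9.85, 9.68 and 9.83. Naïve replicates 1 and 2, at 9.86 and 10.00, matched the 14-day level, while the other 4 naïve arrays lay at 8.32 or below. The log2 fold change at 14 days was 1.09 (standard error 0.373, adjusted p = 0.0457). Of its 2 probesets 1 passed (1.28) and the other did not (0.90). With 1 array left out at a time, Unc5b passed at 14 days in 5 of 16 fits.

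Both plexins that passed at 14 days rose. Plxnb2, a receptor of class 4 semaphorins, ranged from 9.90 to 10.79 (median 10.32) in naïve skin, read 10.79, 10.53, 10.81, 10.64 and 10.64 at 7 days, and 10.86, 10.83, 10.70, 10.68 and 10.71 at 14 days. Naïve replicates 1 and 2 (10.79 and 10.71) lay among the 14-day values, and the log2 fold change was 0.41 (standard error 0.136, adjusted p = 0.0411). Plxnb2 passed at 14 days in 7 of 16 fits that each left out 1 array. Plxna3, a signaling partner of neuropilins, ranged from 6.89 to 6.99 (median 6.94) in naïve skin. It read 7.17, 6.90, 7.16, 7.10 and 7.14 at 7 days, and 7.14, 7.18, 7.33, 7.15 and 7.08 at 14 days. Every 14-day array lay above every naïve array, and the log2 fold change was 0.24 (standard error 0.0573, adjusted p = 0.0133).

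A further semaphorin and a robo fell at 14 days. Sema4b, a transmembrane semaphorin, ranged from 9.37 to 9.63 (median 9.46) in naïve skin, read 9.37, 9.31, 9.36, 9.01 and 9.24 at 7 days, and 9.42, 9.13, 9.12, 9.22 and 9.19 at 14 days. It fell by 0.27 on the log2 scale (standard error 0.0745, adjusted p = 0.0232), with 1 of 5 arrays inside the naïve range. Robo2, a slit receptor, ranged from 4.81 to 5.57 (median 5.18) in naïve skin, read 5.05, 5.21, 5.44, 5.26 and 4.66 at 7 days, and 4.76, 4.78, 4.59, 4.71 and 4.74 at 14 days. The 14-day values lay below every naïve array, at -0.47 (standard error 0.143, adjusted p = 0.0317). Robo2 lies at the low end of signal, and 1 of its 3 probesets passed (-0.70) while the others gave -0.14 and -0.18. Robo2 passed at 14 days in 7 of 16 fits that each left out 1 array.

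**Figure D3:**
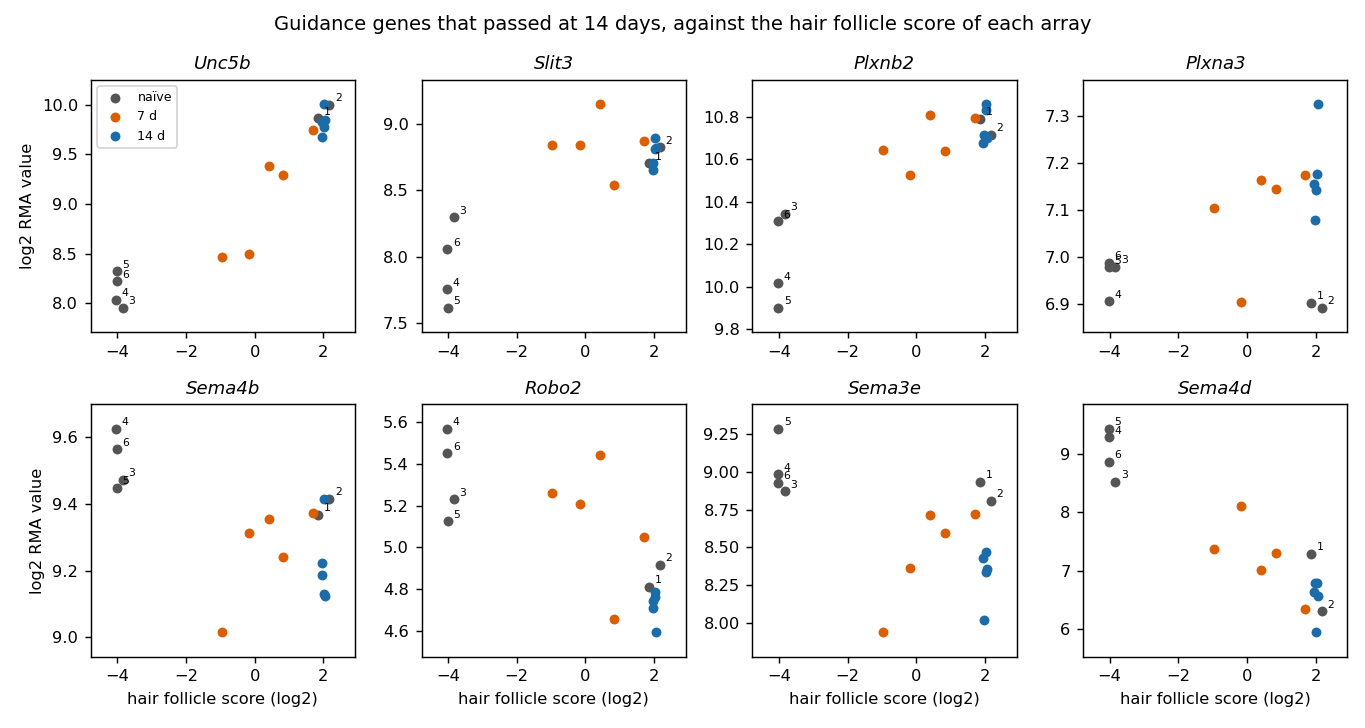
Log2 RMA value of the 8 members that passed at 14 days (vertical axes) against the hair follicle score of each array (horizontal axes, log2 scale), with points coloured by group and naïve arrays numbered by replicate. For Unc5b, Plxnb2, Slit3 and Sema4d, naïve replicates 1 and 2 sit beside the 14-day arrays at scores near 2, and naïve replicates 3 to 6 sit apart near -4, whereas for Sema3e and Plxna3 naïve replicates 1 and 2 stay with the other naïve arrays.

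All 11 hair follicle genes measured were higher at 14 days, and 9 of 14 sarcomere genes were lower, with sarcomere scores of -0.63 to 0.90 in naïve skin, -0.57 to 0.53 at 7 days and -0.73 to -0.38 at 14 days. With either score as a covariate no member passed at 14 days, and few of the 14217 genes did. With the hair follicle score 65 were higher and 179 lower, and with the sarcomere score 52 and 135, against 1272 and 2071 without. The fold changes of the members did not all shrink. Sema3e stayed near its value of -0.65, at -0.64 with the hair follicle score and -0.69 with the sarcomere score, and Plxna3 was at 0.26 and 0.22 and Sema4b at -0.22 and -0.27. The log2 fold change of Unc5b went from 1.09 to -0.17 and -0.04, that of Sema4d from -1.73 to -0.21 and -0.10, that of Slit3 from 0.57 to 0.06 and 0.03, and that of Plxnb2 from 0.41 to 0.01 and 0.02. Robo2 went from -0.47 to -0.13 and -0.32. At an unadjusted p under 0.05 in limma, 5 members were higher and 7 lower with the hair follicle score, and 5 and 5 with the sarcomere score. Without naïve replicates 4 and 5, Sema3e (-0.56, adjusted p = 0.0363) and Dcc (0.21, adjusted p = 0.0484) passed. Without naïve replicates 1 and 2, 17 members were higher and 6 lower, and Efnb1, an ephrin that acts through EphB receptors, was then at 0.94. Of all genes 3006 were higher and 3101 lower in that setting, and 251 and 708 without naïve replicates 4 and 5. With all naïve arrays Efnb1 was at 0.54 and did not pass (adjusted p = 0.0846). Efnb1 is named here after its values were seen. The part of hair follicle, muscle and RNA quality in these results was not tested beyond these settings.

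Between 7 and 14 days, the falls of Nrp1 and Ephb4 described above stood beside rises of 8 members. Unc5cl, which matches by symbol and is no netrin receptor, read 5.93, 5.87, 5.76, 5.85 and 6.12 at 7 days and 6.16, 6.39, 6.23, 6.18 and 6.63 at 14 days, against 5.74 to 6.41 (median 6.10) in naïve skin. It was 0.41 higher at 14 days (standard error 0.118, adjusted p = 0.0272), without overlap. Plxna1, the plexin that pairs with Nrp1 for Sema3a, read 6.98, 6.75, 6.99, 6.93 and 6.83 at 7 days and 7.39, 6.95, 7.26, 7.26 and 7.39 at 14 days, with a naïve range of 6.76 to 7.34 (median 7.06). It was 0.35 higher (standard error 0.114, adjusted p = 0.0426), with replicate 2 of the 14-day group inside the 7-day range. The Plxna1 probeset at 0.35 passed, and the one at 0.29 did not. Its brightest probeset, with a naïve mean of 9.27, gave 0.03 without passing. With 1 array left out at a time, Plxna1 passed in 7 of 16 fits. Plxnb1, the receptor of Sema4d, read 7.87, 7.64, 7.70, 7.42 and 7.56 at 7 days and 7.86, 7.98, 8.06, 7.82 and 7.91 at 14 days, with a naïve range of 7.65 to 7.96 (median 7.82). It was 0.29 higher (standard error 0.0812, adjusted p = 0.026), and the highest 7-day value lay inside the 14-day range. The Plxnb1 probeset at 0.29 passed, and the one at 0.27 did not. Its brightest probeset, with a naïve mean of 9.14, gave 0.03 without passing.

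Ntn1, the secreted netrin, and its attractive receptor Dcc both passed in this comparison. Ntn1 read 5.22, 5.21, 5.31, 5.20 and 5.11 at 7 days and 5.35, 5.50, 5.66, 5.47 and 5.42 at 14 days, with naïve values of 5.28 to 5.46 (median 5.38). It was 0.27 higher at 14 days (standard error 0.0612, adjusted p = 0.0108), without overlap, but its probesets gave 0.36, -0.02 and 0.27. Epha6, an ephrin-A receptor, read 4.34, 4.53, 4.35, 4.43 and 4.62 at 7 days and 4.56, 4.66, 4.77, 4.90 and 4.85 at 14 days, against 4.42 to 4.69 (median 4.52) in naïve skin, with a difference of 0.30 (standard error 0.0786, adjusted p = 0.0206) and overlapping values. The remaining rises were Dcc (0.27, adjusted p = 0.0102), Epha5 (0.22, adjusted p = 0.0148) and Sema4g (0.20, adjusted p = 0.0431). Dcc, Epha5, Epha6 and Ntn1 belong to the 3554 genes at the low end of signal, of which 16.9% were higher at 14 than at 7 days, against 6.19% of the other genes. After a further quantile normalization that share was 3.18%, and none of these 4 members passed (Dcc 0.17, Epha5 0.15, Epha6 0.20 and Ntn1 0.19). Sema4g also missed the threshold in that setting (0.17, adjusted p = 0.0963). It did not pass with the genes at the low end left out (adjusted p = 0.0549), or with the hair follicle or sarcomere score as a covariate. Sema4g passed in 8 of 16 fits that each left out a single array.

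**Figure D4:**
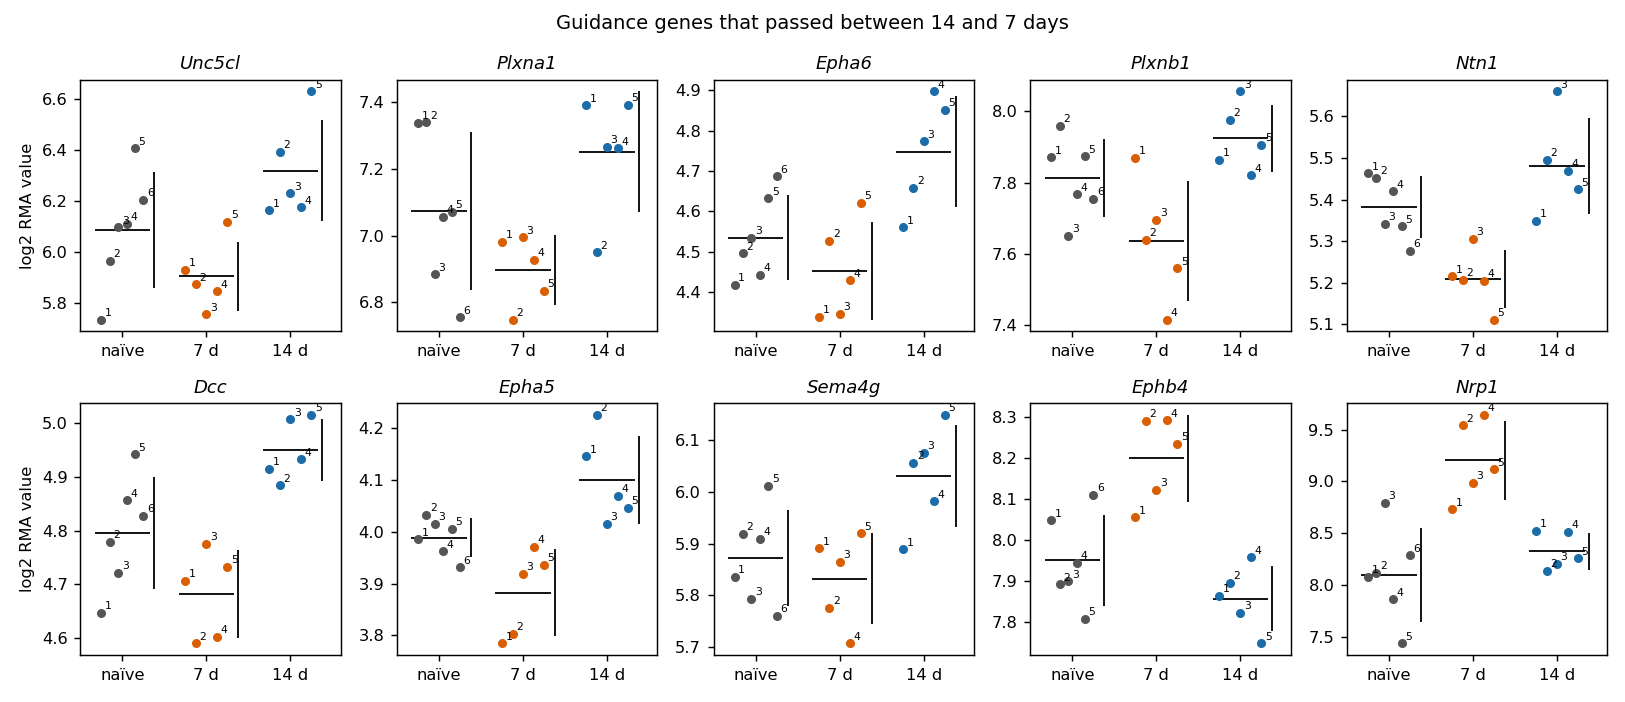
Log2 RMA value of each array (points, numbered by replicate) for the 10 members that passed between 14 and 7 days, with the group mean (horizontal line) and its SD (vertical line). Nrp1 and Ephb4 were the members with higher values at 7 days, and their 7-day and 14-day values did not overlap.

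Ligands and their receptors are set side by side here as values, with no test of whether pairs passed together. Sema3g, Nrp1 and Nrp2 passed upward at 7 days, and Sema3e passed downward, while no plexin passed at that time. Slit2 and Slit3 passed at 7 days with no robo, and Slit3 and Robo2 passed in opposite directions at 14 days. Of the netrin system Unc5b alone passed against naïve skin, with Ntn1 at -0.17 and 0.10 and Dcc at -0.11 and 0.16 at 7 and 14 days. In the ephrin-A system none of the 3 ligands (-0.21 to -0.08 at 7 days and -0.11 to 0.08 at 14 days) and none of the 8 EphA receptors passed against naïve skin. In the ephrin-B system Ephb4 and Ephb6 passed at 7 days, and neither ephrin-B ligand did (-0.01 and 0.26).

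The 36 members that passed nowhere comprised 12 semaphorins, 4 plexins, 2 robos, 1 slit, 1 netrin, 2 Unc5 receptors, 3 ephrin-A and 2 ephrin-B ligands, 6 EphA and 2 EphB receptors and Unc50, a gene unrelated to netrin receptors. Their log2 fold changes against naïve skin reached furthest in the semaphorins, from -0.54 (Sema3d) to 0.56 (Sema3b) at 7 days and from -0.61 to 0.33 at 14 days. The plexins among them lay between -0.16 and 0.55 at 7 days and between -0.06 and 0.31 at 14 days. The EphA receptors among them lay between -0.14 and 0.40, and between 0.00 and 0.52. The robos Robo1 and Robo3 were at 0.04 and -0.21 at 7 days and at 0.31 and -0.07 at 14 days. In all, 20 of the 58 members lay at the low end of signal, including Dcc, Ntn1, Ntn5, Robo2, Robo3, Slit1, Slit2, Unc5a, Unc5c and 6 EphA receptors, and for these a missed threshold says little about the transcript. The low end is set on the median over probesets, and Ntn1, Sema5a and Sema6c among these 20 each had 1 brighter probeset, with naïve means of 6.98, 8.46 and 7.28. That of Sema5a, named after its values were seen, was lower at 14 days (-0.45, adjusted p = 0.0214), while its other 3 probesets did not pass.

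Other genes of the pathway were read from lists chosen with earlier results known. Of 29 other guidance cues and receptors measured, 4 were higher (13.8%, against 7.85% of all genes) and 1 lower (3.45%, against 2.66%) at 7 days, with a median of -0.08. The largest among those that passed were Flrt2, a membrane ligand of Unc5 receptors (1.02), the chemokine Cxcl12 (0.83) and its receptor Cxcr4 (0.70). At 14 days 3 were higher (10.3%, against 8.95%) and 4 lower (13.8%, against 14.6%), and the largest that passed were the adhesion molecule Chl1 (-1.34), the repulsive guidance molecule Rgma (-0.76) and Rtn4, which encodes Nogo (-0.68). Between 14 and 7 days 3 were higher (10.3%, against 8.86%) and 3 lower (10.3%, against 10.1%), the largest that passed being Cxcr4 at -0.72, Rgma at -0.51 and the myelin protein gene Mag at 0.46. Mag lies at the low end of signal, with means of 4.83, 4.63 and 5.09 in naïve, 7-day and 14-day skin.

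Of 45 genes of guidance signal transduction, 9 were higher (20%, against 7.85% of all genes) and 1 lower (2.22%, against 2.66%) at 7 days, with a median of 0.10. The largest among those that passed were Trio, a guanine nucleotide exchange factor (0.73), the GTPase Rhoa (0.63) and Ngef, an exchange factor downstream of EphA receptors (-0.59). At 14 days 5 were higher (11.1%, against 8.95%) and 2 lower (4.44%, against 14.6%), the largest that passed being the kinase Fyn at 1.30, Ngef at -0.78 and Dpysl3, a relative of the semaphorin effector Dpysl2, at 0.36. From 7 to 14 days 2 were higher (4.44%, against 8.86%) and 6 lower (13.3%, against 10.1%), the largest that passed being Dpysl2 at -0.78, Trio at -0.76 and the adaptor Nck1 at -0.60. The scores of this list ranged from -0.25 to 0.06 in naïve skin, from 0.03 to 0.11 at 7 days and from -0.04 to 0.08 at 14 days.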

How the data were processed

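Transcripts in dorsal skin were measured in 6 naïve rats, 5 denervated rats at 7 days and 5 at 14 days. Deposited values are log2 intensities that the authors made with robust multi-array averaging (RMA). The submitters' processing notes list R 3.0.1 (for RMA a version was not given in the sources used here). RMA forces arrays toward 1 distribution and compresses differences of dim probesets. Of 31099 probesets, 57 controls, 9780 without a gene and 436 with several genes were dropped, and each gene took the median of its probesets (24 of 58 members had more than 1). A single linear model over all 16 arrays was fitted with limma 3.58.1 in R 4.3.3, with Benjamini-Hochberg adjustment over 14217 genes and a threshold of 0.05. The low end of signal means a highest group mean under the first quartile (5.632). Named were all members that passed, the 5 largest per comparison and direction with every array, families by range, and the 3 largest of each other list. Members, lists and the settings without a pair of naïve arrays were chosen with earlier results of these data known. Alternatives changed probeset collapse, dim genes, scaling, array weights, moderation, arrays, a replicate block and covariates. The model was tested on simulated data. Samples were grouped by their source labels.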

Additional observations from a re-analysis of the deposited data

Results flagged for a closer look

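Single arrays stood far from the rest of their group for 3 of the 22 members that passed, in 4 of 66 groups examined, and chance gives about 1 such group in 20. Plxna3 at 7 days had replicate 2 at 6.90, with the nearest other value at 7.10. Sema3e had naïve replicate 5 at 9.29, with the nearest at 8.98, and replicate 5 at 14 days at 8.02, with the nearest at 8.34. Sema4d had replicate 1 at 14 days at 5.95, with the nearest at 6.57.

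The response at 14 days differed from that at 7 days, in the direct limma test between the times, for 10 members. The 8 higher were 13.8% of the members, against 8.86% of all genes, and the 2 lower were 3.45%, against 10.1%. Nrp1 (-0.88) and Ephb4 (-0.34) were lower at 14 days. Higher at 14 days were Unc5cl (0.41), Plxna1 (0.35), Epha6 (0.30), Plxnb1 (0.29), Ntn1 (0.27), Dcc (0.27), Epha5 (0.22) and Sema4g (0.20), all on the log2 scale. The adjusted p lay between 0.00588 for Ephb4 and 0.0431 for Sema4g. Dcc, Epha5, Epha6 and Ntn1 lie at the low end of signal. They and Sema4g did not pass after a further quantile normalization.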

How the results depend on the processing

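The counts of members that passed depended on the naïve arrays and on the scaling, and the cause was not tested except where fewer genes, arrays or covariates enter by construction. The values as deposited gave 6 higher and 2 lower at 7 days, 4 and 4 at 14 days, and 8 and 2 between 14 and 7 days. In the same order, without naïve replicates 1 and 2 the counts were 12 and 8, 17 and 6, and 15 and 3. Without naïve replicates 4 and 5 they were 1 and 0, 1 and 1, and 9 and 3. Array weights gave 9 and 7, 20 and 8, and 15 and 5. With only the 2 groups compared they were 1 and 0, 1 and 5, and 14 and 5. Subtracting array medians gave 5 and 8, 4 and 4, and 13 and 2, and quantile normalization gave 3 and 3, 5 and 3, and 5 and 2. With the hair follicle score they were 4 and 8, 0 and 0, and 8 and 2, and with the sarcomere score 4 and 2, 0 and 0, and 6 and 3. Leaving out dim genes gave 3 higher between 14 and 7 days, where 589 of 10663 genes were. Probesets taken singly gave 7 higher at 14 days. Where 0 were lower at 7 days, limma gave 7 (2 groups) and 6 (without naïve replicates 4 and 5) at an unadjusted p under 0.05. The calls over all 14217 genes moved with the settings as well, and are given here in the same order. As deposited they were 1116 and 378, 1272 and 2071, and 1260 and 1430. Without naïve replicates 1 and 2 they were 2706 and 2334, 3006 and 3101, and 1965 and 2302. Without naïve replicates 4 and 5 they were 345 and 46, 251 and 708, and 1504 and 1840. Array weights gave 2131 and 1711, 3572 and 3411, and 2265 and 2589. The 2 groups alone gave 264 and 31, 968 and 1663, and 1882 and 2523. Subtracting array medians gave 951 and 1492, 1021 and 2132, and 2079 and 1005. Quantile normalization gave 951 and 729, 1384 and 2042, and 903 and 733. The hair follicle score gave 1243 and 669, 65 and 179, and 1389 and 1621. The sarcomere score gave 1051 and 394, 52 and 135, and 1203 and 1331.

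Leaving out 1 array at a time gave 1 to 7 higher and 0 to 5 lower at 7 days, 1 to 12 and 1 to 5 at 14 days, and 3 to 10 and 2 to 4 between 14 and 7 days. At 7 days the count of 1 higher came without naïve replicate 4, naïve replicate 5 or replicate 4 of the 7-day group, and 0 were lower without naïve replicate 4 or that same 7-day array (7 and 10 at an unadjusted p under 0.05 in limma). Of all genes 676, 711 and 529 were higher without these arrays, in the order given. Without naïve replicate 4 and that 7-day array 127 and 100 of all genes were lower. At 14 days 11 and 12 were higher without naïve replicates 1 and 2 in turn, and 1 was lower without naïve replicate 4 or 6. Over all genes 2063 and 2150 were higher without naïve replicates 1 and 2 in turn. Those lower without naïve replicates 4 and 6 in turn were 1217 and 1289. Between the times 3 members and 655 of all genes were higher without replicate 5 of the 14-day group.

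Replicate numbers were treated as names, since the source labels do not pair the samples. Deviations of same-numbered arrays correlated between -0.55 and 0.58, and 9 of 30 were highest with their own number. No value under chance was computed, so these correlations cannot tell whether samples were paired. With the replicate block the counts were 5 and 1, 2 and 1, and 8 and 2. Over all genes they were 746 and 117, 367 and 899, and 1104 and 1210. Unc5b at 14 days turned to -0.0406 with the sarcomere score and -0.168 with the hair follicle score, from 1.09. Ntn1 between 14 and 7 days turned to -0.0226 with the probeset of the highest mean, from 0.27. Over all settings and members that passed anywhere, 1547 values kept direction and side of the threshold, 202 lost it, 53 gained it, 25 that had not passed changed sign and 3 that had passed did. Signal over background limits the 20 members at the low end.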
